A study of Mus musculus with 26 samples.

Results

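The data described here are the adult Opn4-GFP libraries of a mouse retina study: 6 libraries of intrinsically photosensitive retinal ganglion cells (ipRGCs) and 6 of the conventional retinal ganglion cells (cRGCs) sorted beside them, 12 of 26 libraries in all, chosen by their labels. All genes with values in these libraries were used, 11587 of the 14580 genes listed for the series. The donor mice were Opn4-GFP+/- and 27 to 33 days old, and both groups carried the transgene. The labels give the strain as BL6, whereas the study's text calls the background of the line mixed. Opn4-GFP is a bacterial artificial chromosome transgene in which the melanopsin gene drives GFP, and it labels the M1, M2 and M3 types of ipRGC. Retinal cells of several mice were combined, enriched for the surface protein Thy1 with magnetic beads, and separated by fluorescence-activated sorting into GFP-positive cells (ipRGC libraries) and GFP-negative cells (cRGC libraries). The libraries with the same replicate number were taken as the ipRGC and cRGC fractions of one pool of cells, so that each of the 6 pools has a library of either kind. GFP marks only part of the ipRGCs, and unlabelled ipRGCs therefore fall among the cRGCs. The 3 ipRGC and 3 cRGC libraries made with the same line at 4 to 6 days of age (P5) are used for comparison only.

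Most retinal ganglion cells carry to the brain what rods and cones have detected. ipRGCs also detect light themselves, with the photopigment melanopsin, which signals through a Gq-type G protein and phospholipase C to TRPC cation channels. They set the circadian clock and drive the pupillary light reflex, and in the adult retina most depend on the T-box transcription factor Eomes (Tbr2). Müller glia are the retina's principal glia: they recycle glutamate and visual pigment chromophore and span the depth of the retina.

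Sequencing depth differed between pools. Reads assigned to the listed genes numbered 4134285 to 34882834 in the ipRGC libraries (median 17717131.5) and 3927386 to 35090060 in the cRGC libraries (median 14930824). Pools 5 and 6 were sequenced in 1 run and the other pools in 2 or 3. The number of listed genes without a read was 18 to 1893 in the ipRGC libraries and 144 to 2530 in the cRGC libraries, and was highest in both libraries of pool 4, followed by both libraries of pool 2. Levels are read counts per 1000000 reads (CPM), for which the authors had corrected each library's total by TMM (trimmed mean of M values, which sets the scale so that most genes do not change). A gene was called when the limma adjusted p was below 0.05 and the fold change above 2, on log2(CPM + 1) with the pool as a block. A fold change on this scale understates the change of genes at a few CPM. No strand was kept in these libraries, so that reads of overlapping and antisense genes cannot be told apart by strand.

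Marker genes of the cell types in the retina were summed first, as reads of a list per 1000000 reads of listed genes, to see what the sorted fractions held. The Müller glia list summed to 775 to 1905 (median 1276) in the ipRGC libraries, against 11766 to 30431 (median 21394) in the cRGC libraries. The groups did not overlap, and within the cRGC group the sum was lowest in pool 2, at 11766, and highest in pool 1, at 30431. The list of 14 genes common to RGCs ran the other way, with 5071 to 7086 (median 6042) in the ipRGC libraries, against 667 to 2677 (median 1393) in the cRGC libraries. Among cRGC libraries it was highest in pool 2, at 2677, and lowest in pool 5, at 667. Genes of neurons in general summed to 28327 to 35688 (median 35064) in the ipRGC libraries, against 9989 to 24053 (median 16891) in the cRGC libraries. The cRGC libraries were therefore named for their sort gate: every RGC marker on the list had reads in them, at a lower summed level than in the ipRGC libraries and beside a higher level of glial transcripts. In bulk samples of this kind, fewer cells of a type and less RNA per cell cannot be told apart.

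Markers of some other cell types also summed to higher medians in the cRGC libraries. Endothelium and pericyte markers, of which 3 of 14 were listed, summed to 0.726 to 52.1 (median 30.7) in the ipRGC libraries and 554 to 1647 (median 1385) in the cRGC libraries. This sum is that of Kdr, Flt1 and Rgs5 only, and the defining markers Cldn5, Cdh5 and Pecam1 were not listed. The study describes vascular markers as essentially absent from both fractions. Rod markers (6 of 15 listed) summed to 11.2 to 131 (median 59.9) in the ipRGC libraries and 113 to 1303 (median 435) in the cRGC libraries, which overlapped. Amacrine cell markers (13 of 16 listed) summed to 1537 to 3623 (median 2619.5) and 3343 to 9395 (median 6029) in the same order, with overlap. No microglia marker (of 10) and no retinal pigment epithelium marker (of 5) was listed in the adult libraries. At P5 the Müller glia list was at a low level in both fractions, 547 to 793 in ipRGC libraries and 483 to 569.9 in cRGC libraries, and the RGC list was at 7024 to 10653 and 8588 to 10839. Both P5 fractions thus had Müller glia sums in or below the range of the adult ipRGC libraries. The P5 sums cover 14 listed members of that list and the adult sums 18, and Flt1 of the endothelium and pericyte list was not listed at P5. The study points out that Müller glia are still forming at this age, which would presumably lower their transcripts. Astrocyte markers did differ at P5: 2 of 4 listed were lower in ipRGC libraries (median -1.90), and the sums were 2.3 to 7.76 in P5 ipRGC libraries, against 16.7 to 78 in P5 cRGC libraries, without overlap. The endothelium and pericyte sum was 11.4 to 13.8 in P5 ipRGC libraries and 18.7, 7.25 and 302 in the P5 cRGC libraries of pools 1, 2 and 3. The P5 cRGC library of pool 3 was thus the highest for both lists.

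**Figure D1:**
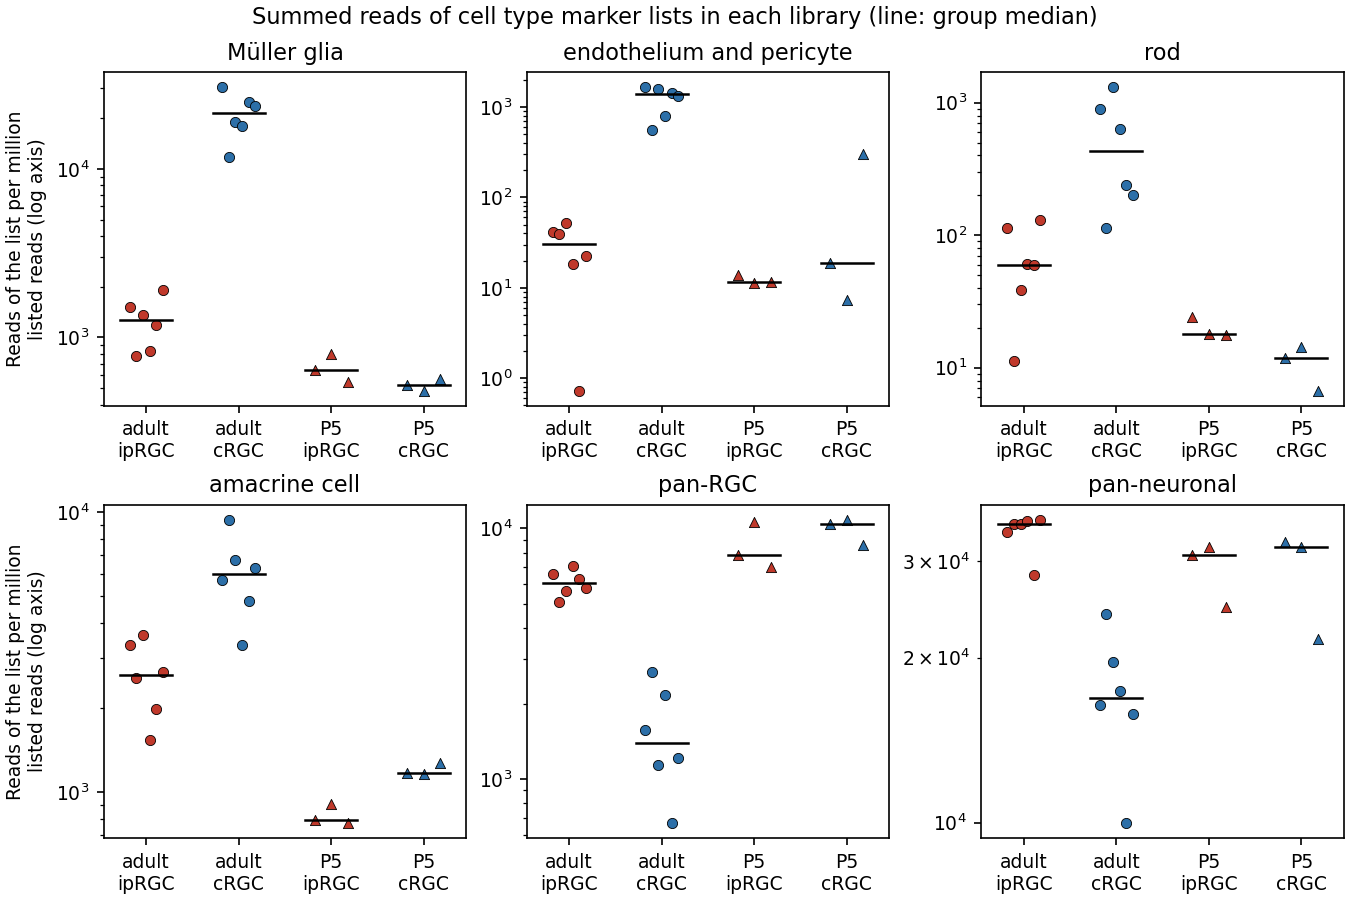
Summed reads of 6 marker lists in each library, in reads of the list per 1000000 reads of listed genes on log axes, for adult and P5 ipRGC and cRGC libraries (points, 1 library each; lines, group medians). Müller glia sums lay between 775 and 1905 in adult ipRGC libraries and between 11766 and 30431 in adult cRGC libraries, and the RGC and neuronal lists lay the other way.

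Which genes differ between the ipRGC and cRGC fractions of the adult retina was the question of this comparison. Of 11587 genes, 190 (1.64%) rose and 379 (3.27%) fell in ipRGC libraries, and the median log2 fold change over all genes was 0.06. The rises had log2 fold changes of 1.13 to 7.64 (median 3.33), had the same direction in all 6 pools for 175 genes, and did not overlap between groups for 113. The falls ran from -1.04 to -8.74 (median -4.12), with the same direction in all 6 pools for 341 and no overlap for 237. These counts cover genes already chosen by the call, which itself favors one direction and little overlap. The shares among all genes were not counted, so that the counts add no support to the calls. Mean cRGC levels were under 5 CPM for 58 of the rises, and mean ipRGC levels were under 5 CPM for 205 of the falls. The authors' filter had dropped genes with very low counts in most of the samples compared. Genes near 0 in one group were therefore listed only through the other group, which fixed their direction. Of the falls, 27 were markers on the lists of other cell types, 5 were on the RGC, neuronal or amacrine lists and 343 were on no list. The number of rises depended on single pools: it was 110 without pool 1, 119 without pool 3, 92 without pool 5 and 100 without pool 6, and the falls numbered 243 without pool 5. Without pools 5 and 6 together, which had 1 run each, 25 rose and 96 fell. Of the 75 called genes described here, 35 then missed the call: Cacna1b, Cngb1, Cngb3, Cpne9, Dab1, Dgkg, Ednrb, Fos, Gdf6, Gnat1, Gpr179, Jun, Kcnh1, Lrfn5, Nefl, Nmb, Oprm1, Pcsk2, Prkcq, Prox1, Ptprd, Ptprm, Rasgrp1, Rgs17, Rtn1, Scg2, Scn2a1, Scn2b, Spp1, Stk32a, Stmn2, Stmn3, Tfap2b, Tgfb2 and Thy1. With edgeR's quasi-likelihood test on the recovered reads, with the same block, 85 rose and 236 fell, and Cpne9, Dgkg, Ednrb, Fos, Kcnh1, Prkcq and Stmn3 were not called.

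Since the RGC share of the reads differed between the groups, the comparison was also made with each library scaled so that the mean log2(CPM + 1) of a neuronal list was equal in all libraries, in place of the deposited scaling. The median of all genes then moved by -2.56 with the RGC list and by -0.91 with the neuronal list, and by 0.12 when TMM was left out. Scaling to the neuronal list was chosen after the data were seen. With the RGC list 35 genes were called higher and 7870 lower, and with the neuronal list 72 and 1215. All 35 and all 72 were among the 190, and all 379 falls were called again under both. A scale set by the summed CPM of the RGC list, in place of the mean of its log2 values, was added after the data were seen. It moved the median by -1.93 and called 43 genes higher, all among the 190, and 4617 lower. Each scale set by a list lowered the log2 fold change of every gene by the same amount. The overlaps with the 190 and the 379 therefore largely follow from the scaling. Tbx20, Eomes, Opn4, Trpc7, Adcyap1, Adra2a, Nr4a3, Oprm1, Rgs4 and Gng4 were among the 35. The directions given below are those of the deposited scaling. In what follows, the RGC list as the scale means the mean of its log2 values. A positive log2 fold change on that scale means that a gene was higher relative to this list, and the values are given beside the genes described whose call or sign it changed.

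The gene lists used to describe the changes were placed on the scale of all genes. The lists were chosen with earlier results of these data known, so that their counts and medians are not independent evidence about a pathway. Transcription factors of RGCs had the highest median log2 fold change (2.52, 23 of 35 listed) and Müller glia markers the lowest (-6.15, 18 of 20 listed), among the lists with at least 5 listed genes and against 0.06 for all genes. Adhesion molecules (0.10), ribosomal proteins (0.19) and markers of conventional RGC types (0.21) had medians close to that of all genes. With the RGC list as the scale, 4 genes of the melanopsin cascade list, 3 transcription factors, 2 G protein-coupled receptors and 2 genes of the RGC list itself were still higher. So was 1 gene each of the neuropeptide, adhesion, rod, conventional RGC and immediate early lists. On that scale 24 of 32 ribosomal protein genes (75%) were lower, beside 67.9% of all genes.

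**Figure D2:**
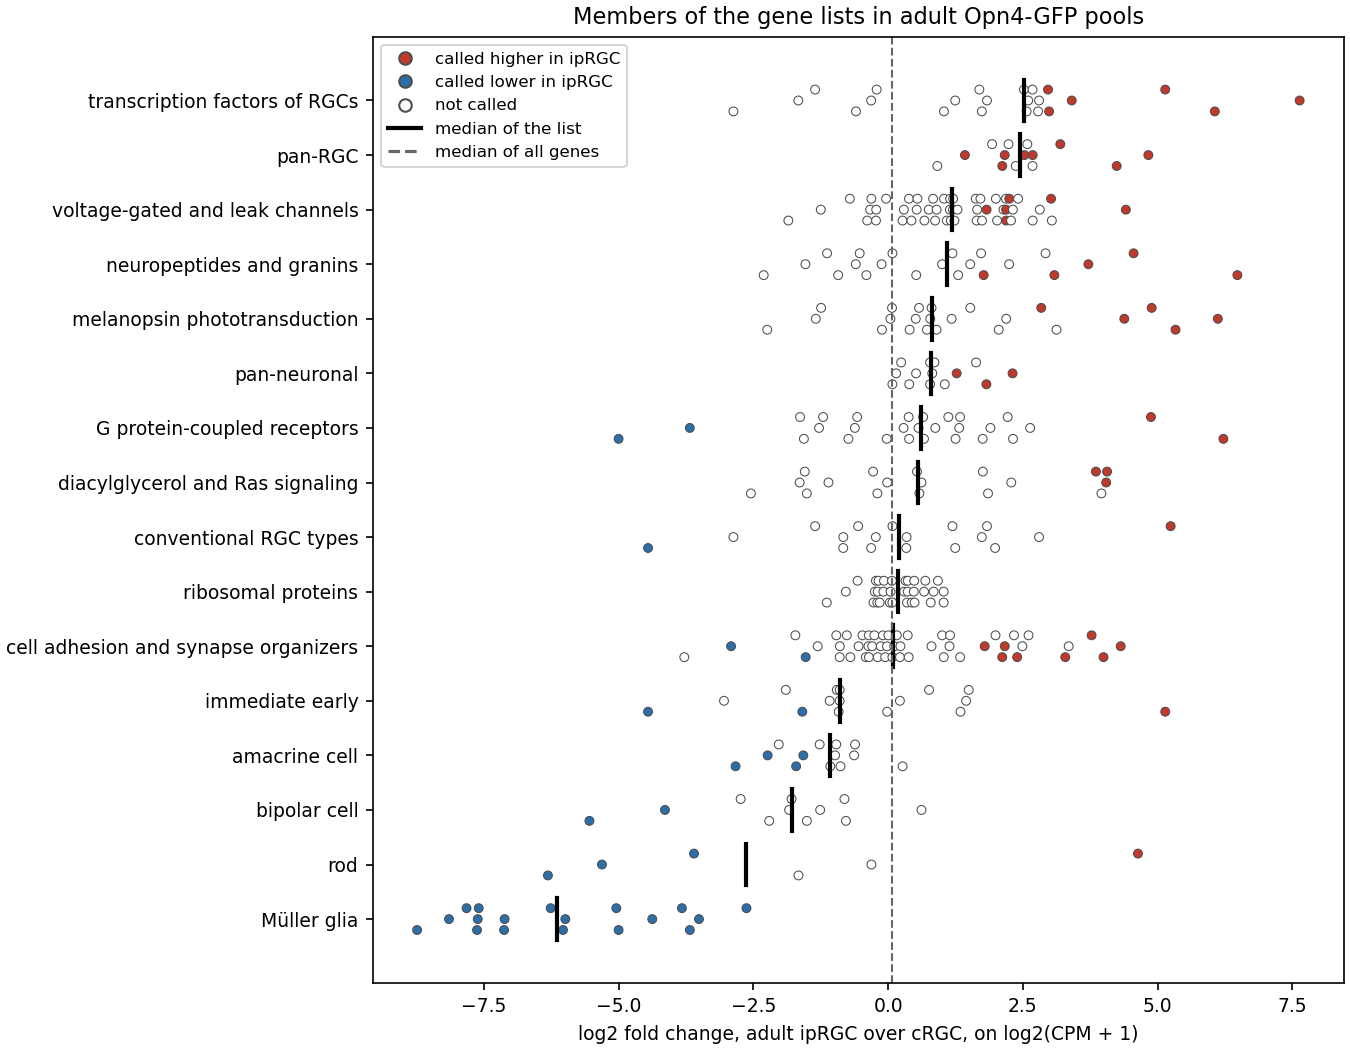
Log2 fold change, ipRGC over cRGC on log2(CPM + 1), of each listed member of the gene lists with at least 5 listed members (points; red, called higher in ipRGC; blue, called lower; white, not called; thick lines, list medians; dashed line, median of all genes). All 18 Müller glia markers lay at or below -2.63, and Cngb1 was the only rod marker above 0.

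Melanopsin, the photopigment of ipRGCs, checks the sort. Opn4 (mm9 chr14:35403804-35413328) was at 2915 to 9823 CPM (median 5699.9) in the ipRGC libraries, against 69.1 to 487 CPM (median 124) in the cRGC libraries. The groups did not overlap, and the highest cRGC level was that of pool 4. The log2 fold change was 5.33, SE 0.35, limma adjusted p = 3.79e-06, and it ranged from 4.09 in pool 3 to 6.81 in pool 2. At P5 it was 5.77 (limma adjusted p = 1.09e-10). Scaling to the RGC list left an adult log2 fold change of 2.77, still called.

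On the melanopsin cascade list, 5 of 23 listed genes rose and none fell (median 0.81). The rises were Opn4, Trpc7, Gng4, Rgs4 and Rgs17. Only Rgs17 lost its call with the RGC list as the scale (log2 fold change 2.84, and 0.28 on that scale). The study had reported Gng4, Rgs4 and Rgs17 as higher in ipRGCs from these same data. It calls the beta and gamma subunits of the cascade unknown. Trpc7, a cation channel opened downstream of melanopsin, was at 37.6 to 445 CPM (median 65.3) in the ipRGC libraries, against 0 to 3.73 CPM (median 0.179) in the cRGC libraries. All but 1 of the cRGC libraries were under 1 CPM. The log2 fold change was 6.12, SE 0.82, limma adjusted p = 0.000588, and 3.95 at P5, where it was called as well. Rgs4, which speeds the shutdown of Gq and Gi proteins, was at 435 to 766 CPM (median 609) in the ipRGC libraries, against 9.64 to 64.1 CPM (median 29.1) in the cRGC libraries, with a log2 fold change of 4.38, SE 0.49, limma adjusted p = 0.000136. At P5 its log2 fold change was 1.18, also called, and the adult effect exceeded that at P5 by 3.25 (limma adjusted p = 0.0276). Gng4, a G protein gamma subunit, was at 185 to 518 CPM (median 333) in the ipRGC libraries, against 0.0729 to 34.2 CPM (median 17.4) in the cRGC libraries (log2 fold change 4.89, SE 0.77, limma adjusted p = 0.0018). Its P5 value was 0.07 and was not called, and the difference from adults did not pass the test, at 4.87 (limma adjusted p = 0.0814). Plcb4, the phospholipase C of this cascade, was at 225 to 922 CPM (median 443) in the ipRGC libraries, against 93.8 to 801 CPM (median 344) in the cRGC libraries, and the groups overlapped (log2 fold change 0.57, SE 0.42, limma adjusted p = 0.53; -1.99, called lower, when scaled to the RGC list).

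**Figure D3:**
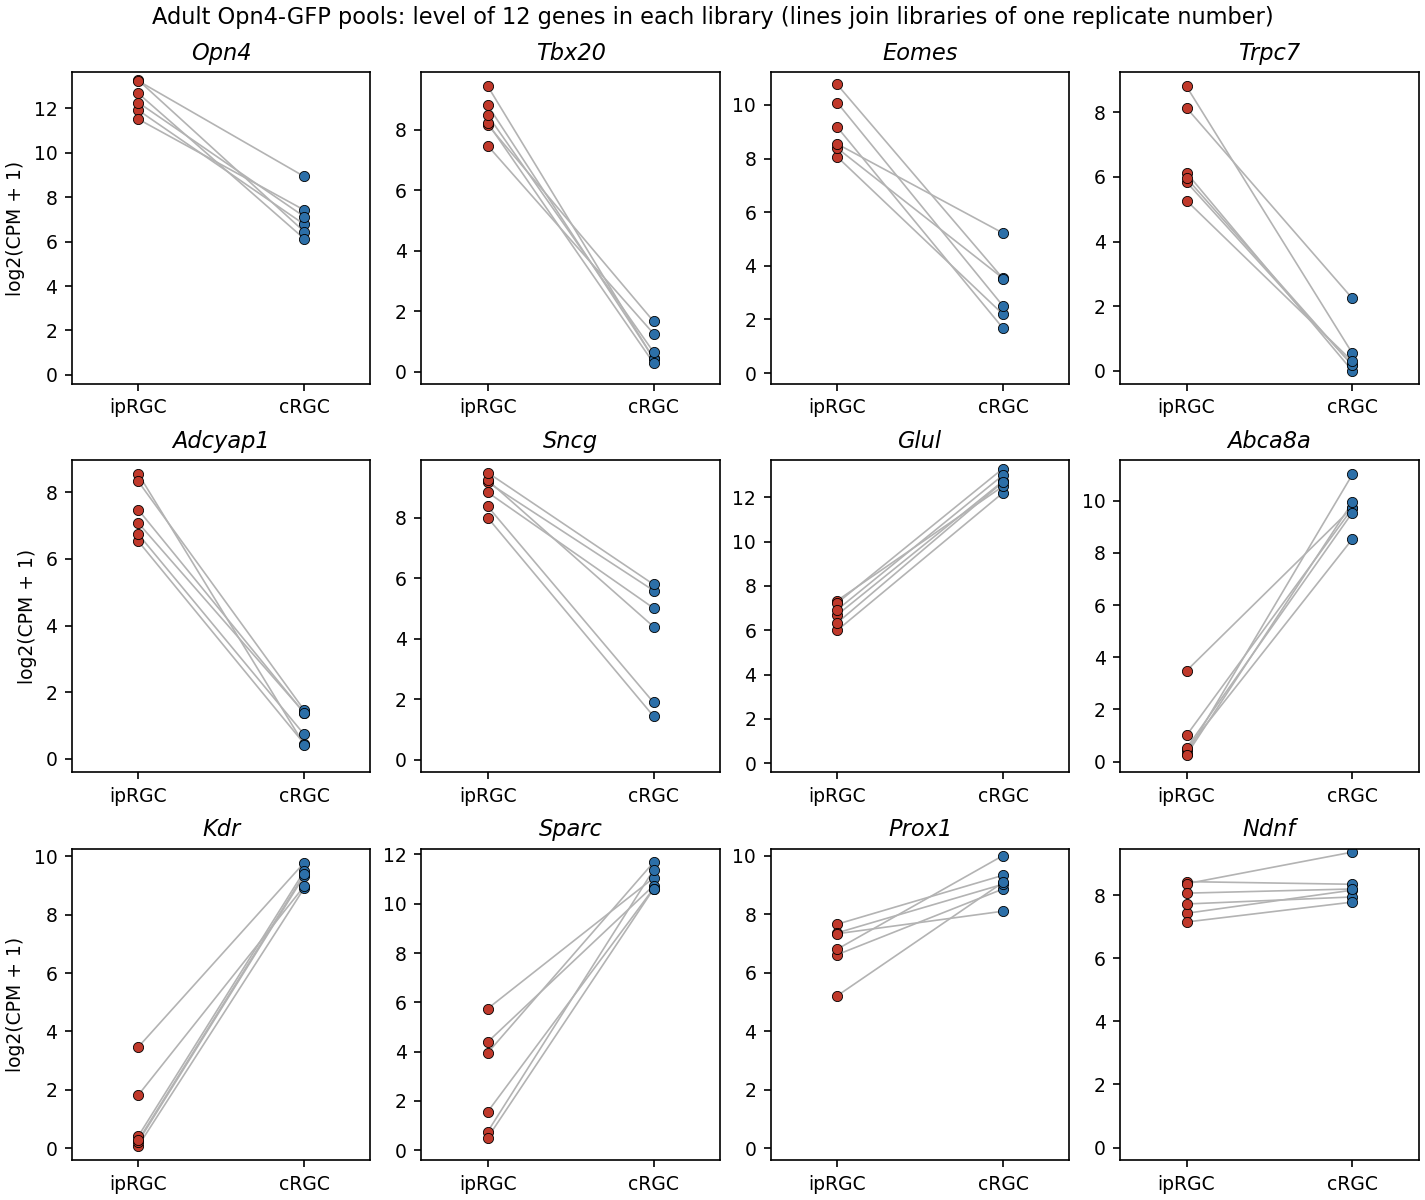
Level of 12 genes, as log2(CPM + 1), in each adult ipRGC (red, left) and cRGC (blue, right) library, with grey lines joining libraries of one replicate number. Opn4, Tbx20, Eomes, Trpc7, Adcyap1 and Sncg were higher in the ipRGC library of every pool, Glul, Abca8a, Kdr, Sparc and Prox1 were lower in every pool, and Ndnf was lower in 5 of 6.

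Phospholipase C also makes diacylglycerol, and 3 of the 18 listed genes of diacylglycerol and Ras signaling rose, with none lower (median 0.56). Rasgrp1, a diacylglycerol-activated exchange factor for Ras, was at 342 to 1104 CPM (median 593) in the ipRGC libraries, against 2.29 to 131 CPM (median 47.8) in the cRGC libraries. The groups did not overlap, and the log2 fold change was 3.86, SE 0.72, limma adjusted p = 0.00538. Prkcq, a diacylglycerol-dependent protein kinase C, was at 50.7 to 149.6 CPM (median 96.3) in the ipRGC libraries, against 0 to 46.4 CPM (median 3.54) in the cRGC libraries, without overlap but with the highest cRGC library close to the lowest ipRGC library (log2 fold change 4.05, SE 0.86, limma adjusted p = 0.0129). Dgkg, a kinase that removes diacylglycerol, was at 19.5 to 197 CPM (median 85.2) in the ipRGC libraries, against 0 to 34.8 CPM (median 2.82) in the cRGC libraries, and its groups overlapped (log2 fold change 4.06, SE 0.92, limma adjusted p = 0.0203). All 3 were called at P5 too, where the log2 fold changes were 5.65, 5.81 and 5.20 in the same order. None was called when the adult libraries were scaled to the RGC list, with log2 fold changes of 1.29, 1.48 and 1.5. Prkcq was not called without pool 1 or without pool 5 (adjusted p = 0.0552 and 0.0605), nor Dgkg without pool 3 or without pool 6 (0.0769 and 0.0799, all limma).

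Transcription factors gave the largest rise. Tbx20 (mm9 chr9:24527648-24578746), a T-box factor, was at 176 to 692 CPM (median 326) in the ipRGC libraries, against 0.219 to 2.17 CPM (median 0.466) in the cRGC libraries, with 36498 reads over the ipRGC libraries and 102 over the cRGC libraries. No cRGC library came near the lowest ipRGC library. The log2 fold change was 7.64, SE 0.73, limma adjusted p = 3.88e-05, the highest among all called genes, and 5.31 at P5. Eomes (mm9 chr9:118387330-118395250), also a T-box factor, was at 267 to 1737 CPM (median 476) in the ipRGC libraries, against 2.19 to 36.3 CPM (median 7.6) in the cRGC libraries, with a log2 fold change of 6.06, SE 0.66, limma adjusted p = 0.000116 and a P5 value of 4.84. The highest cRGC value was in pool 6. Nr4a3, a nuclear receptor that is also an immediate early gene, was at 71.3 to 487 CPM (median 191) in the ipRGC libraries, against 0.343 to 18.2 CPM (median 5.66) in the cRGC libraries (log2 fold change 5.14, SE 0.78, limma adjusted p = 0.00143; P5 3.57). Ebf3, a helix-loop-helix factor, was at 576 to 1769 CPM (median 1237) in the ipRGC libraries, against 44.9 to 381 CPM (median 197) in the cRGC libraries (log2 fold change 2.97, SE 0.43, limma adjusted p = 0.00111). Ebf3 was not called at P5 (0.67) nor with scaling to the RGC list (0.40). In all, 6 of the 23 listed factors rose and none fell. Among them, Tbx20, Eomes and Nr4a3 had been reported by the study from the same data. At P5, 5 of 33 listed rose and 13 fell.

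The promoters of the genes that rose were searched for a half-site known for T-box factors, GGTGTGA or its reverse complement TCACACC, on either strand, in 300 bases from 250 before to 50 after each start site (RefSeq, GRCm38.p6). Of the 41 named genes that rose, 34 had a promoter in the table and 4 (11.8%) held the motif: Nr4a3, Adam19 and Gng4 on the reverse strand, with its first base at -35, -66 and -125 from the start site, and Cacna1b on the forward strand at -95. Of all 27025 genes in the table, 1244 (4.6%) held it in a promoter. Counted by promoter, 4 of the 45 promoters of the 34 genes held it, beside 1307 of all 32851 (3.98%), and of the 11 genes with a promoter among the 15 largest rises 1 did (Adam19). No test was made of these shares. The promoters of Nr4a3 (chr4:48045055-48045354, plus strand), Adam19 (chr11:46054252-46054551, plus strand, 1 of 3 in the table) and Gng4 (chr13:13783809-13784108, plus strand, 1 of 2) are shown for the place of the motif, in capitals, beside that of Opn4 (chr14:34600093-34600392, minus strand), which held none in this window. A match describes these letters only, and no binding was measured.
Nr4a3: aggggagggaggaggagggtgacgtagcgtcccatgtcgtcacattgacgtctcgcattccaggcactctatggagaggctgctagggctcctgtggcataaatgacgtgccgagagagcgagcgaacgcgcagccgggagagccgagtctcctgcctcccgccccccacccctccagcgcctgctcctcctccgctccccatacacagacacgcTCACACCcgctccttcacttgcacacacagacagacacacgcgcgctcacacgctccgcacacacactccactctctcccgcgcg
Adam19: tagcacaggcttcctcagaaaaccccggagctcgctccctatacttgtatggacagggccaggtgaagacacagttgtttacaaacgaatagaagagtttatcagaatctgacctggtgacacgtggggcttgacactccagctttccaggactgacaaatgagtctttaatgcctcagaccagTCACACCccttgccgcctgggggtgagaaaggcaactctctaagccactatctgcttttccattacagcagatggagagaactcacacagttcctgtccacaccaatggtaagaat
Gng4: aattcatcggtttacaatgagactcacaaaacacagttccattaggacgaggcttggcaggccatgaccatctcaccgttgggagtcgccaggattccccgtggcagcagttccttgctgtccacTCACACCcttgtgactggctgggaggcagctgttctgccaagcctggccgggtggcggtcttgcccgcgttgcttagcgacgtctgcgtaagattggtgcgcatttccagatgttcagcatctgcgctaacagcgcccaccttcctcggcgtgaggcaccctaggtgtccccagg
Opn4: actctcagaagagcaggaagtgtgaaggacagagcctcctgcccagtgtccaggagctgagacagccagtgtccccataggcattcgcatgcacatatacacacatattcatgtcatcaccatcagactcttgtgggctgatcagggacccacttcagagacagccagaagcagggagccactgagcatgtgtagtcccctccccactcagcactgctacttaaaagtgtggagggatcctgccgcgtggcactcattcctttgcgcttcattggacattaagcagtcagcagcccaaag

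Neuropeptide genes contributed 5 rises among 22 listed, with none lower (median 1.10). Adcyap1 encodes PACAP, the peptide that ipRGCs release with glutamate in the brain. It was at 91.5 to 375 CPM (median 156) in the ipRGC libraries, against 0.343 to 1.75 CPM (median 1.12) in the cRGC libraries, without overlap, and its log2 fold change was 6.48, SE 0.76, limma adjusted p = 0.000217. At P5 the gap was smaller, with 70.9 ± 16.4 CPM in P5 ipRGC libraries and 31.3 ± 2.41 CPM in P5 cRGC libraries (SD, n = 3 each) and a log2 fold change of 1.13. The difference between ages was 5.41 (SE 0.91, limma adjusted p = 0.0179). The levels of the ages come from libraries scaled separately. Nmb, which encodes neuromedin B, was at 16.5 to 62.7 CPM (median 30.1) in the ipRGC libraries, against 0 to 4.2 CPM (median 0) in the cRGC libraries (log2 fold change 4.56, SE 0.79, limma adjusted p = 0.0035), under 1 CPM on average in both P5 fractions, and its gap was wider in adults by 4.60 (limma adjusted p = 0.0391). Pcsk2, a protease that cuts peptide precursors, was at 81.7 to 317 CPM (median 115) in the ipRGC libraries, against 7.67 to 42 CPM (median 12) in the cRGC libraries (log2 fold change 3.09, SE 0.64, limma adjusted p = 0.0106), and also rose at P5 (log2 fold change 1.55). Neither Nmb (1.99, limma adjusted p = 0.0536) nor Pcsk2 (0.52) was called with the RGC list as the scale. Scg2, a granin of dense-core vesicles, was at 511 to 1459 CPM (median 975) in the ipRGC libraries, against 151 to 422 CPM (median 341) in the cRGC libraries (log2 fold change 1.77, SE 0.28, limma adjusted p = 0.00188); with the RGC list as the scale it had the opposite sign, -0.79, and with the summed list -0.15.

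Among 28 listed G protein-coupled receptors, 2 rose and 2 fell. Adra2a, the alpha-2A adrenergic receptor, was at 45.5 to 310.1 CPM (median 64.8) in the ipRGC libraries, against 0 to 2.19 CPM (median 0.0937) in the cRGC libraries, with 11109 reads over the ipRGC libraries and 23 over the cRGC libraries (log2 fold change 6.22, SE 0.82, limma adjusted p = 0.000519). Oprm1, the mu opioid receptor, was at 19.8 to 313 CPM (median 68.3) in the ipRGC libraries, against 0 to 8.24 CPM (median 0.507) in the cRGC libraries (log2 fold change 4.88, SE 0.80, limma adjusted p = 0.00257). Both were called at P5 (2.30 and 2.74) and under scaling to the RGC list (3.66 and 2.31). The 2 that fell were Gpr37, which is also on the Müller glia list, and Ednrb, the endothelin B receptor, a gene of glia and endothelium. Gpr37 was at 2.78 to 16.4 CPM (median 5.7) in the ipRGC libraries, against 31.1 to 431 CPM (median 315) in the cRGC libraries (log2 fold change -5.0, SE 0.69, limma adjusted p = 0.000686). Ednrb was at 0 to 3.92 CPM (median 0.0978) in the ipRGC libraries, against 8.17 to 53.8 CPM (median 20.4) in the cRGC libraries (log2 fold change -3.68, SE 0.75, limma adjusted p = 0.0104), and was not called without pool 5 (limma adjusted p = 0.0605).

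Voltage-gated and leak channel genes had a median log2 fold change of 1.18, with 6 of 50 listed higher and none lower. Kcnh1, a potassium channel of the ether-à-go-go family, was at 68.3 to 352 CPM (median 99.9) in the ipRGC libraries, against 0.0729 to 65.7 CPM (median 5.75) in the cRGC libraries (log2 fold change 4.41, SE 0.98, limma adjusted p = 0.0171; P5 1.77, also called). In pool 6 its difference was only 0.16, and it was not called without pool 3 or pool 5 (limma adjusted p = 0.0652 and 0.0524) nor with the RGC list as the scale (1.85). Cacna1b, the pore of N-type calcium channels, was at 241 to 458 CPM (median 270.0) in the ipRGC libraries, against 35.3 to 152 CPM (median 60.7) in the cRGC libraries (log2 fold change 2.19, SE 0.45, limma adjusted p = 0.0106). Scn2a1, a sodium channel of neurons, was at 192 to 1279.9 CPM (median 319) in the ipRGC libraries, against 57.4 to 147 CPM (median 77.8) in the cRGC libraries (log2 fold change 2.19, SE 0.46, limma adjusted p = 0.0127), and its partner Scn2b was at 185 to 1615 CPM (median 270.2) in the ipRGC libraries, against 11.6 to 497 CPM (median 78.1) in the cRGC libraries, with overlap (log2 fold change 2.25, SE 0.48, limma adjusted p = 0.0131, and limma adjusted p = 0.0678 without the pool block). None of these 3 was called at P5 (0.01, 0.12 and 0.73), and all 3 changed sign with the RGC list as the scale (-0.37, -0.38 and -0.32). With the summed list as the scale they were above 0 and not called (0.26, 0.26 and 0.32). Cacna1b was not called without pool 5 or 6 (limma adjusted p = 0.0652 and 0.055), nor Scn2a1 without pool 3 or 5 (0.0513 and 0.0556).

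Adhesion molecules moved in either direction, with 8 of 50 higher and 2 lower (median 0.10). Ptprm, a receptor phosphatase that binds itself between cells, was at 137 to 567 CPM (median 281) in the ipRGC libraries, against 0.31 to 49.3 CPM (median 17.5) in the cRGC libraries (log2 fold change 4.32, SE 0.71, limma adjusted p = 0.00251). Lrfn5, a synaptic adhesion protein, was at 102 to 366 CPM (median 297) in the ipRGC libraries, against 3.2 to 66 CPM (median 11.9) in the cRGC libraries (log2 fold change 4.0, SE 0.64, limma adjusted p = 0.00208), and Clstn2, a calsyntenin, was at 384 to 1376 CPM (median 471) in the ipRGC libraries, against 24.8 to 146 CPM (median 49.9) in the cRGC libraries (log2 fold change 3.29, SE 0.43, limma adjusted p = 0.00046). None of these 3 overlapped between groups, and all 3 rose at P5 as well (1.89, 1.21 and 1.68). Scaled to the RGC list, Ptprm was still called (1.75), and Lrfn5 (1.43, limma adjusted p = 0.0579) and Clstn2 (0.72, 0.181) were not. Ptprd, a receptor phosphatase that organizes presynaptic terminals, fell: it was at 183 to 443 CPM (median 246) in the ipRGC libraries, against 443 to 1439 CPM (median 607) in the cRGC libraries (log2 fold change -1.53, SE 0.29, limma adjusted p = 0.00668).

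Ctxn3, Gldn, Gdf6, Stk32a, Adam19 and Hs3st2, among the 15 rises with the highest fold changes, were on no list. Ctxn3, a cortexin, was at 39.3 to 240.3 CPM (median 131) in the ipRGC libraries, against 0 to 2.29 CPM (median 0.114) in the cRGC libraries (log2 fold change 6.48, SE 0.80, limma adjusted p = 0.000333) and also rose at P5 (log2 fold change 5.67). Gldn, gliomedin, which gathers sodium channels at the nodes of peripheral axons, was at 27.5 to 108 CPM (median 77.9) in the ipRGC libraries, against 0 to 4.82 CPM (median 0.0882) in the cRGC libraries (log2 fold change 5.51, SE 0.81, limma adjusted p = 0.00113; P5 5.24). Gdf6, a growth factor of the BMP family with a part in eye development, was at 17.4 to 213 CPM (median 57.1) in the ipRGC libraries, against 0 to 7.02 CPM (median 0.123) in the cRGC libraries (log2 fold change 5.27, SE 0.91, limma adjusted p = 0.0035; P5 3.23). All 3 were under 10 CPM in every cRGC library. Stk32a, a kinase, and Adam19, a membrane metalloprotease, had log2 fold changes of 5.80 and 5.45, and also rose at P5 (1.61 and 1.32). Spp1 (osteopontin, on the list of conventional RGC types) and Hs3st2 (a heparan sulfate sulfotransferase) were all but absent from the cRGC libraries. Spp1 had 3972 reads over the ipRGC libraries and 3 over the cRGC libraries, and Hs3st2 had 7802 reads over the ipRGC libraries and 2 over the cRGC libraries. Both were called, and no fold change is given for these genes with 3 or fewer reads in a group. Spp1 was not listed at P5, and Hs3st2 was at 31.4 ± 2.75 CPM in P5 ipRGC libraries and 19.6 ± 5.12 CPM in P5 cRGC libraries (SD, n = 3 each), a difference that was not called.

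The genes common to all RGCs were higher in the adult ipRGC libraries. Of 14 such genes, 8 rose and none fell (median 2.45), and of 14 general neuronal genes 3 rose and none fell (median 0.80). Sncg, gamma-synuclein, was at 256 to 719.9 CPM (median 517) in the ipRGC libraries, against 1.72 to 54.7 CPM (median 25.7) in the cRGC libraries (log2 fold change 4.83, SE 0.58, limma adjusted p = 0.000283). At P5 it was at 346 ± 81.8 CPM in P5 ipRGC libraries and 419 ± 65 CPM in P5 cRGC libraries (SD, n = 3 each), with a log2 fold change of -0.29, and the gap differed between ages by 5.15 (SE 0.79, limma adjusted p = 0.00834). Tubb3, the neuronal beta-tubulin, was at 184 to 1102 CPM (median 228) in the ipRGC libraries, against 6.44 to 82.3 CPM (median 12.5) in the cRGC libraries, where pool 4 was the highest library of both groups (log2 fold change 4.24, SE 0.54, limma adjusted p = 0.000392). Its P5 value was 0.29, and the difference was 3.99 (limma adjusted p = 0.00785). Nefl, the light neurofilament chain, was at 600.1 to 2147 CPM (median 839) in the ipRGC libraries, against 48 to 398 CPM (median 167) in the cRGC libraries (log2 fold change 2.53, SE 0.39, limma adjusted p = 0.00165; P5 -0.18), and the difference between ages was 2.75 (limma adjusted p = 0.0455). Stmn2, a tubulin-binding protein of growing axons, was at 283 to 1174 CPM (median 477) in the ipRGC libraries, against 27.6 to 144 CPM (median 91.1) in the cRGC libraries (log2 fold change 2.68, SE 0.52, limma adjusted p = 0.00704; P5 0.21).

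General neuronal genes showed smaller gaps. Map1b, a microtubule-associated protein, was at 5286 to 10998 CPM (median 6594) in the ipRGC libraries, against 925 to 3709 CPM (median 2189) in the cRGC libraries and was higher in all 6 pools (log2 fold change 1.82, SE 0.16, limma adjusted p = 1.53e-05), and the gap exceeded that at P5 by 1.54 (limma adjusted p = 0.00701). Rtn1, a reticulon, had a log2 fold change of 1.27, and Stmn3 of 2.31, though it was higher in 5 of 6 pools only and was not called without pool 1, 3, 5 or 6 (limma adjusted p = 0.116, 0.125, 0.139 and 0.0663). Snap25, a protein of synaptic vesicle release, was at 6617 to 15269 CPM (median 10939) in the ipRGC libraries, against 2459.9 to 10668 CPM (median 6369) in the cRGC libraries, a log2 fold change of 0.86 that was not called. With the RGC list as the scale Nefl, Map1b, Rtn1, Stmn3 and Snap25 had negative log2 fold changes (-0.03, -0.74, -1.29, -0.25 and -1.70), Stmn2 was at 0.12 and not called, and Sncg (2.27) and Tubb3 (1.68) were still called. Sncg, Tubb3, Nefl and Stmn2 are themselves among the 14 genes that set this scale, which makes the mean change of the list 0, so that their values show only their place within it. With the summed list Map1b and Rtn1 were below 0 (-0.10 and -0.65), and Nefl (0.60), Stmn2 (0.76) and Stmn3 (0.38) were above 0 and not called. The Müller glia sums given above differed between the same groups of libraries, and their part in these rises was not tested.

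Some of the highest adult rises were not called at P5. Pirt, a membrane protein that regulates TRP channels in sensory neurons, was at 40.5 to 223 CPM (median 69.8) in the ipRGC libraries, against 0 to 0.805 CPM (median 0.083) in the cRGC libraries (log2 fold change 6.01, SE 0.81, limma adjusted p = 0.000627). At P5 it was at 56.1 ± 6.71 CPM in P5 ipRGC libraries and 93.4 ± 38.9 CPM in P5 cRGC libraries (SD, n = 3 each), and the difference between ages was 6.72 (SE 0.99, limma adjusted p = 0.00701). Islr2, a membrane protein of growing axons, was at 12.5 to 534 CPM (median 122) in the ipRGC libraries, against 0 to 6.69 CPM (median 0.238) in the cRGC libraries (log2 fold change 5.81, SE 1.03, limma adjusted p = 0.00408). Its P5 levels were equal in the fractions to within their spread, at 596 ± 210.2 CPM in P5 ipRGC libraries and 629.8 ± 274 CPM in P5 cRGC libraries (SD, n = 3 each), but the difference between ages missed the threshold, at 5.89 (limma adjusted p = 0.0997), and in pool 6 the adult gap was only 0.81. Both genes were called when scaled to the RGC list (3.44 and 3.25).

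Falls were led by glial genes. All 18 listed Müller glia markers fell in ipRGC libraries (median -6.15). Those nearly absent from the ipRGC libraries passed the authors' filter only through their cRGC levels, so that being listed fixed their direction. Glul (mm9 chr1:155747074-155756853), glutamine synthetase, was at 62.5 to 160.3 CPM (median 111) in the ipRGC libraries, against 4713 to 10069 CPM (median 6697) in the cRGC libraries. The groups were far apart, and the log2 differences within pools spanned only -6.36 to -5.16. The log2 fold change was -5.99, SE 0.24, limma adjusted p = 1.18e-08, the smallest p among all genes. Rlbp1, which carries visual chromophore in Müller cells, was at 0.286 to 14.6 CPM (median 1.8) in the ipRGC libraries, against 542 to 1201 CPM (median 859) in the cRGC libraries (log2 fold change -7.82, SE 0.65, limma adjusted p = 1.24e-05). Apoe, the lipid carrier made by glia, was at 0.377 to 9.43 CPM (median 1.86) in the ipRGC libraries, against 582 to 1136 CPM (median 852) in the cRGC libraries (log2 fold change -8.15, SE 0.64, limma adjusted p = 1.24e-05), and Slc1a3, the glial glutamate transporter, was at 0.344 to 11.1 CPM (median 4.43) in the ipRGC libraries, against 641 to 1402 CPM (median 789) in the cRGC libraries (log2 fold change -7.63, SE 0.65, limma adjusted p = 1.53e-05). Aqp4 and Kcnj10, the water and potassium channels of Müller endfeet, had log2 fold changes of -7.60 and -7.62. Abca8a, an ABC transporter, showed the widest gap of all called genes, at 0.196 to 10.2 CPM (median 0.402) in the ipRGC libraries, against 369 to 2056 CPM (median 843) in the cRGC libraries (log2 fold change -8.74, SE 0.70, limma adjusted p = 1.24e-05). The highest ipRGC library was that of pool 3, and the highest cRGC library that of pool 4.

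Not all markers of the list were near 0 in the ipRGC libraries. The median ipRGC level was under 5 CPM for 10 of the 18. Clu, clusterin, was at 51.7 to 122 CPM (median 85.6) in the ipRGC libraries, against 1240.5 to 2719 CPM (median 1739) in the cRGC libraries (log2 fold change -4.38, SE 0.32, limma adjusted p = 9.35e-06). Dkk3 was at 569.7 to 1268 CPM (median 629) in the ipRGC libraries, against 3109 to 7127 CPM (median 4469) in the cRGC libraries (log2 fold change -2.63, SE 0.21, limma adjusted p = 1.24e-05). At P5 the log2 fold changes were -0.11 for Glul and -0.05 for Clu, neither called. Dkk3 was at 287 ± 83.2 CPM in P5 ipRGC libraries and 194 ± 45 CPM in P5 cRGC libraries (SD, n = 3 each), a log2 fold change of 0.56 (limma adjusted p = 0.0343), which passed the p threshold and not that of 2-fold. Of the 14 list members with P5 values, Slc1a3 fell at P5 too (-1.57), though not without P5 pool 1 or 3 (limma adjusted p = 0.1 and 0.235). Vim and Timp3 were called higher in P5 ipRGCs (1.2 and 2.76), named because their values stood out, and Vim was not called without P5 pool 2 (0.0779).

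Prelp, Sox8, Crym and Sparc, also among the 15 falls with the largest fold changes, were on no list. Prelp, a matrix protein, was at 0.188 to 0.87 CPM (median 0.361) in the ipRGC libraries, against 352 to 665 CPM (median 558) in the cRGC libraries (log2 fold change -8.58, SE 0.67, limma adjusted p = 1.24e-05). Sox8, a transcription factor of glia, had a log2 fold change of -7.70 and an ipRGC median of 0.212 CPM. Crym, a thyroid hormone binding protein, had 11 reads over the ipRGC libraries and 23799 over the cRGC libraries (log2 fold change -7.69, SE 0.77, limma adjusted p = 5.87e-05), a value that with so few ipRGC reads rests on the pseudocount. Kdr, a VEGF receptor, was at 0.0628 to 10.1 CPM (median 0.276) in the ipRGC libraries, against 476 to 872 CPM (median 649.6) in the cRGC libraries (log2 fold change -8.25, SE 0.68, limma adjusted p = 1.24e-05), and Flt1, another, was at 0.214 to 35.1 CPM (median 3.47) in the ipRGC libraries, against 202 to 900.1 CPM (median 580.0) in the cRGC libraries (log2 fold change -6.78, SE 0.70, limma adjusted p = 6.6e-05). Of the 14 endothelium and pericyte markers only Kdr, Flt1 and Rgs5 were listed, and the defining markers Cldn5, Cdh5 and Pecam1 were not. Sparc, a matrix glycoprotein, was at 0.428 to 52.6 CPM (median 8.21) in the ipRGC libraries, against 1552 to 3278 CPM (median 1908) in the cRGC libraries (log2 fold change -8.19, SE 0.67, limma adjusted p = 1.24e-05). It also fell at P5, by 3.02 on the log2 scale, with 11.4 ± 4.52 CPM in P5 ipRGC libraries and 103 ± 45.7 CPM in P5 cRGC libraries (SD, n = 3 each). Of the astrocyte markers 2 of 6 were listed. Slc14a1, a urea transporter, fell, with 10 reads over the ipRGC libraries and 19072 over the cRGC libraries. Gfap, the defining one, was at 0 to 4.49 CPM (median 0.0107) in the ipRGC libraries, against 0.0729 to 18 CPM (median 8.97) in the cRGC libraries and was not called (-2.42), but was called lower with the RGC list as the scale (-4.99) and at P5 (-3.35 (limma adjusted p = 0.0021)).

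Photoreceptor and bipolar genes made up a smaller group of falls. Gnat1, the rod transducin, was at 0 to 5.19 CPM (median 0.0600) in the ipRGC libraries, against 4.99 to 336 CPM (median 70.0) in the cRGC libraries, with overlap (log2 fold change -5.31, SE 0.93, limma adjusted p = 0.00378). Cngb3, a cone channel subunit, was at 0 to 1.54 CPM (median 0) in the ipRGC libraries, against 1.9 to 20.5 CPM (median 10.1) in the cRGC libraries (log2 fold change -3.0, SE 0.65, limma adjusted p = 0.0151); it was not called without pool 3, 5 or 6 (limma adjusted p = 0.0583, 0.0605 and 0.0623). At P5 it was called the other way, with a log2 fold change of 1.27, though not without P5 pool 1 or 3 (limma adjusted p = 0.157 and 0.243). Gpr179, a protein of ON bipolar cells, had a log2 fold change of -4.14, SE 0.89, limma adjusted p = 0.0141, with 2395 CPM in one cRGC library and a cRGC median of 26 CPM. Gpr179 was not called without pool 3, 5 or 6 (limma adjusted p = 0.0582, 0.0502 and 0.055). One rod gene rose. Cngb1, the beta subunit of the rod cyclic nucleotide-gated channel, was at 6.76 to 89.8 CPM (median 22.9) in the ipRGC libraries, against 0 to 0.31 CPM (median 0) in the cRGC libraries, with 2663 reads over the ipRGC libraries and 5 over the cRGC libraries (log2 fold change 4.64, SE 0.80, limma adjusted p = 0.00342), while Gnat1 fell. With 5 cRGC libraries at 0 the size of this value rests on the pseudocount. Cngb1 rose at P5 as well, with a log2 fold change of 2.90 (limma adjusted p = 0.000647). The study reports that its reads were few and mostly lay in a restricted part of the gene. It adds that the alpha subunits the channel needs were undetected, and that the result may be a false positive. Where in the gene the reads lay was not examined here at either age.

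On the RGC, neuronal, conventional RGC and amacrine lists 5 genes fell with the deposited scaling, among them Prox1, Tfap2b, Dab1 and Jun. This number depended on the scale. Scaled to the RGC list, 13 of 13 amacrine, 11 of 14 general neuronal (78.6%) and 11 of 18 conventional RGC markers (61.1%) were lower, beside 67.9% of all genes. Scaled to the neuronal list these numbers were 11, 0 and 2 in the same order, beside 1215 of all 11587 genes. Prox1, a homeodomain factor of amacrine, bipolar and horizontal cells, was at 36 to 201 CPM (median 135) in the ipRGC libraries, against 273 to 1021 CPM (median 529.6) in the cRGC libraries (log2 fold change -2.23, SE 0.44, limma adjusted p = 0.00756), and fell at P5 to about the same extent (-2.17). Tfap2b, an AP-2 factor of amacrine cells, was at 91 to 383 CPM (median 221) in the ipRGC libraries, against 208 to 1428 CPM (median 799) in the cRGC libraries, with overlap (log2 fold change -1.71, SE 0.38, limma adjusted p = 0.0175; P5 -1.71, also called, though not without P5 pool 1, limma adjusted p = 0.137). The adult fall was not called without pool 2, 3, 5 or 6 (limma adjusted p = 0.0509, 0.0595, 0.0791 and 0.0829). Dab1, an adaptor of reelin signaling found in AII amacrine cells, was at 16.1 to 50.9 CPM (median 26.8) in the ipRGC libraries, against 91 to 600.0 CPM (median 194) in the cRGC libraries (log2 fold change -2.83, SE 0.55, limma adjusted p = 0.00756). Gad2 and Pax6, the most abundant amacrine markers that were not called, were at 161 to 561 CPM (median 377) and 241 to 738 CPM (median 345) in the ipRGC libraries, against 306 to 902 CPM (median 624) and 411 to 1790.0 CPM (median 650.1) in the cRGC libraries. Their log2 fold changes were -0.61 and -0.96, and with the RGC list as the scale -3.18 and -3.53, both called.

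To set falls of genes with reads in the ipRGC libraries beside those of genes nearly absent there, the 379 falls were divided by the mean ipRGC level. This level also enters the fold change, so that smaller falls at higher levels are partly built into the division. Below 5 CPM lay 205 genes (median log2 fold change -4.56), between 5 and 50 CPM 117 (-3.82), and above 50 CPM 57 (-2.10). Of these, 121, 110 and 57 genes were listed at P5, where 13, 19 and 9 were called lower and 5, 12 and 0 higher. No gene of the lowest group was on the RGC, neuronal or amacrine lists, and 9 were on the Müller list, whereas the highest group held 4 Müller markers and 3 genes of the neuronal lists. The median P5 cRGC level of the lowest group was 4.63 CPM, compared with 16.7 and 88.4 CPM for the other two. Which of the falls came with the glial RNA of the cRGC libraries was not tested.

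The adult calls were set beside those at P5, where the Müller glia sums of the fractions lay close together and the astrocyte sums, at a lower level, did not. At P5 329 of 13677 genes rose in ipRGC libraries (2.41%) and 397 fell (2.90%). Of the 190 adult rises, 64 were also called higher at P5, which is 33.7% of the adult and 19.5% of the P5 rises. Another 121 were listed and not called, with a median P5 log2 fold change of 0.15, 3 were not listed and 2 were called lower. Of the 379 adult falls, 41 were also called lower at P5 (10.8% of the adult and 10.3% of the P5 falls), 230 were not called (median -0.19), 91 were not listed and 17 were called higher. Of the 35 rises that remained with the RGC list as the scale, 23 were called higher at P5, 11 were not called and 1 was not listed. The 2 genes that went the other way, named for that, were Cpne9, a copine, and Thy1, the surface protein used to enrich both fractions. Thy1 was at 945 to 2811 CPM (median 1244) in the ipRGC libraries, against 176 to 1366 CPM (median 451) in the cRGC libraries (log2 fold change 1.43, SE 0.30, limma adjusted p = 0.0124), and at P5 its log2 fold change was -1.03. With the RGC list as the scale the adult value of Thy1 was -1.14. Thy1 is itself among the genes that set this scale, so that the value shows only its place within the list. Cpne9 had adult and P5 values of 4.63 and -1.22, and 2.06, not called, in adults with the RGC list as the scale. In adults Thy1 was not called without pool 6 (limma adjusted p = 0.052), nor Cpne9 without pool 5 (0.0644). At P5 the call of Thy1 ended without P5 pool 1 (-0.80) and that of Cpne9 without P5 pool 2 (-0.96), where both were within 2-fold.

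**Figure D4:**
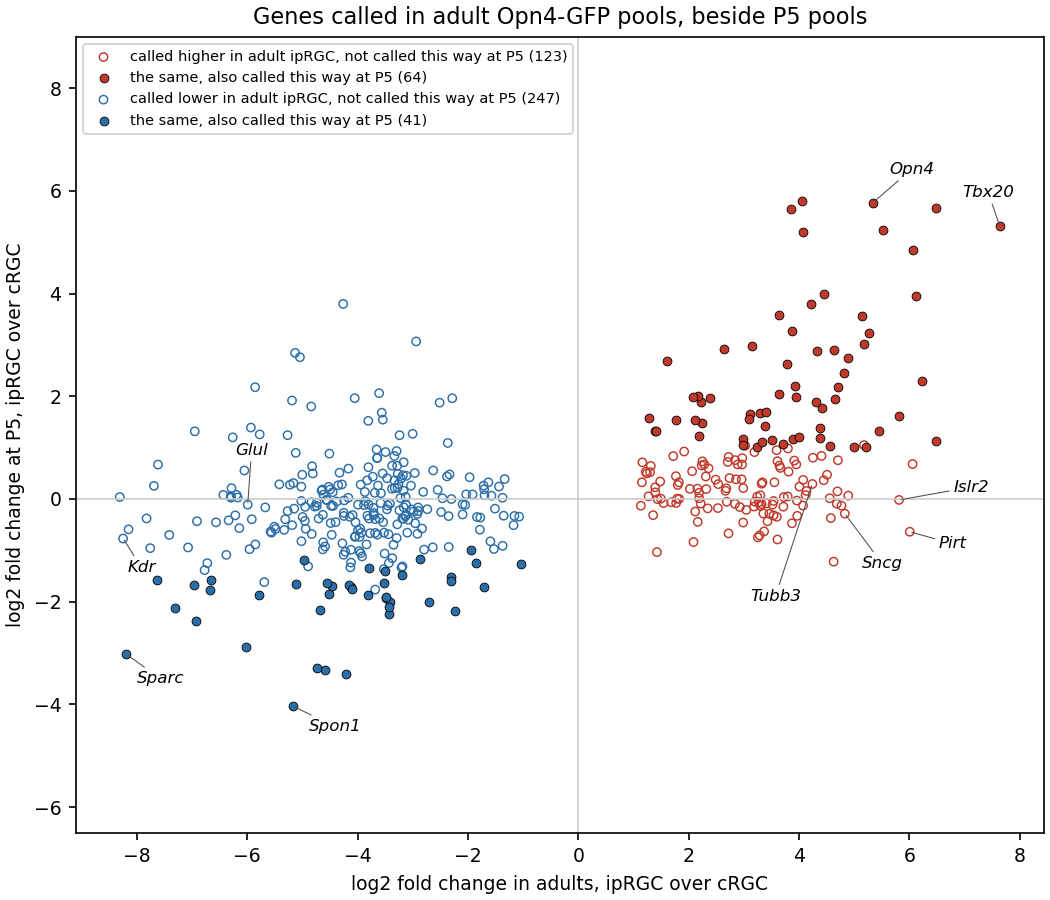
Log2 fold change, ipRGC over cRGC, in adult (x axis) and P5 (y axis) libraries for the 187 adult rises (red) and 288 adult falls (blue) listed at both ages; filled points were also called in the same direction at P5 (64 rises and 41 falls). Sncg, Tubb3, Islr2, Pirt, Glul and Kdr lay near 0 on the P5 axis, and Opn4, Tbx20, Sparc and Spon1 lay on the same side at both ages.

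Spon1 and Tgfb2 were among the 10 largest of the 41 adult falls also called at P5. Spon1, a secreted axon guidance protein, was at 0.286 to 231 CPM (median 42.3) in the ipRGC libraries, against 561 to 1580.2 CPM (median 859) in the cRGC libraries (log2 fold change -5.18, SE 0.85, limma adjusted p = 0.00249) and at 3.42 ± 1.32 CPM in P5 ipRGC libraries and 74 ± 33.8 CPM in P5 cRGC libraries (SD, n = 3 each) (log2 fold change -4.03). Among adult ipRGC libraries it was highest in pool 2 and lowest in pool 4. Tgfb2, a growth factor, was at 0 to 23.5 CPM (median 4.07) in the ipRGC libraries, against 139.6 to 385 CPM (median 277) in the cRGC libraries (log2 fold change -6.02, SE 0.88, limma adjusted p = 0.00112; P5 -2.89). At P5 both genes, and Sparc, were also called without each P5 pool in turn.

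Whether the gap itself differed between adults and P5 was tested on the within-pool differences of 11236 genes listed at both ages, from read counts scaled together. It was larger toward ipRGCs in adults for 16 genes (0.142%) and toward cRGCs for 56 (0.498%), 72 in all. The count depended on the 3 P5 pools: without pools 1, 2 and 3 in turn it was 4, 3 and 18, of which 0, 0 and 1 (Map1b) were larger toward ipRGCs. Of the genes described, Glul, Ndnf and Dkk3 were called in all 3 cases. The differences called for Rgs4, Adcyap1, Nmb, Sncg, Tubb3, Nefl, Pirt and Nell2 ended in all 3, with limma adjusted p between 0.0614 and 0.386, and those of Map1b, Kcnj10, Crym and Synpr without P5 pool 1 and without P5 pool 2. The call of Clu ended without P5 pool 2. Those of Rgs4, Nmb and Nefl also ended without some of the adult pools. In all, 35 genes were called without adult pool 5 and 43 without adult pool 6. Glul had the smallest p, with a difference of -5.84 (SE 0.41, limma adjusted p = 2.46e-05), and Dkk3, Crym, Kcnj10 and Clu were also among the 56, with differences of -3.14, -7.97, -8.25 and -4.29. Genes that are not Müller markers changed as well. Ndnf, a secreted factor of neurons, was at 141 to 344 CPM (median 238) in the ipRGC libraries, against 219 to 659 CPM (median 289) in the cRGC libraries, a log2 fold change of -0.44 that was not called. At P5 it was at 286 ± 31.6 CPM in P5 ipRGC libraries and 4.15 ± 0.943 CPM in P5 cRGC libraries (SD, n = 3 each), a log2 fold change of 5.81 that was called. The difference was -6.20 (SE 0.52, limma adjusted p = 0.000119). Synpr, a synaptic vesicle protein, was at 231 to 752 CPM (median 299) in the ipRGC libraries, against 271 to 645 CPM (median 428) in the cRGC libraries (log2 fold change -0.26, not called), and at 671 ± 275 CPM in P5 ipRGC libraries and 60.8 ± 9.15 CPM in P5 cRGC libraries (SD, n = 3 each) (log2 fold change 3.38), a difference of -3.60 (limma adjusted p = 0.00353). For both genes the adult groups overlapped, and with the RGC list as the scale the adult values were -3.0 and -2.83, called lower. Nell2, a secreted protein that binds Robo3, went the other way, with log2 fold changes of 1.84 in adults (not called) and -1.89 at P5, and a difference of 3.78 (limma adjusted p = 0.0155); with the RGC list as the scale its adult value was -0.72.

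Markers of conventional RGC types, cells that the cRGC gate should hold, were mostly lower in ipRGC libraries at P5. At P5, 16 of 21 listed markers were lower in ipRGC libraries and 2 were higher (median -2.65), and the list summed to 351 to 532 in ipRGC libraries, against 2263 to 2379.6 in cRGC libraries. In adults 1 of 18 listed markers was lower (Jun) and 1 higher (Spp1), and the sums overlapped, 498 to 828 in ipRGC and 524 to 782 in cRGC libraries. Pou4f1 (Brn3a), named as the best known of these markers, was at 4.35 to 90.3 CPM (median 52.3) in the ipRGC libraries, against 0 to 141 CPM (median 10.6) in the cRGC libraries, and the cRGC value was highest in pool 4, where the ipRGC value was lowest. Its log2 fold change was 1.84 and was not called, whereas at P5 it was -3.40 (limma adjusted p = 5.07e-07). Jam2 was at 11.1 to 416 CPM (median 90.6) in the ipRGC libraries, against 113 to 239 CPM (median 153) in the cRGC libraries and Satb1 at 2.64 to 151 CPM (median 90.7) in the ipRGC libraries, against 0.801 to 122 CPM (median 23.6) in the cRGC libraries, and neither was called (-0.83 and 1.25), with P5 values of -2.10 and -1.90. For none of these 3 markers did the difference between ages pass the test (limma adjusted p = 0.388, 0.938 and 0.224). With the RGC list as the scale the adult values of Pou4f1, Satb1 and Jam2 were -0.73, -1.32 and -3.40, of which that of Jam2 was called. On that scale 11 of the 18 markers (61.1%) were lower, beside 67.9% of all genes.

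Immediate early genes, which change within an hour of stimulation or tissue handling, were examined as a sign of sample state. Of 16 listed, 1 rose (Nr4a3) and 2 fell (median -0.90), and their sums overlapped, 1185 to 3923 (median 1854) in ipRGC and 1536 to 4461 (median 2393) in cRGC libraries. Jun was at 2.74 to 43.5 CPM (median 8.8) in the ipRGC libraries, against 148 to 409.8 CPM (median 227) in the cRGC libraries (log2 fold change -4.45, SE 0.67, limma adjusted p = 0.00135; P5 -1.70, also called). Fos was at 49.6 to 387 CPM (median 113) in the ipRGC libraries, against 147 to 585 CPM (median 391) in the cRGC libraries, with overlap (log2 fold change -1.59, SE 0.42, limma adjusted p = 0.0432). The call of Fos was lost in a fit without the pool block (0.0753) and without pool 1, 2, 3, 5 or 6 (0.0747 to 0.163, all limma adjusted p). Egr1 was at 362 to 845 CPM (median 661) in the ipRGC libraries, against 452 to 4199 CPM (median 1325) in the cRGC libraries and was not called (-1.08), but was called lower with the RGC list as the scale (-3.65). None of 32 listed ribosomal protein genes was called in either direction (median 0.19), and the sums of that list were 752 to 2153 (median 866) in ipRGC and 819.6 to 1451 (median 888) in cRGC libraries.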

How the data were processed

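RNA of 12 adult and 6 P5 Opn4-GFP libraries was amplified with a Nugen Ovation kit and sequenced without strand, in 1 to 3 runs a library. Per the methods of the authors, reads were clipped and quality-filtered with FASTX tools, aligned to mm9 with TopHat2, handled with SAMtools, counted per Ensembl gene with HTSeq and scaled with TMM in edgeR (no source used here gives their versions). The deposited signal values are CPM of these scaled libraries, each set of samples scaled on its own and filtered on low values by the authors. A deposited table of read counts after the quality filter gave the number of runs. Columns of the authors' own fold changes, false discovery rates and group averages were not used.

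Whole reads were recovered from the steps of the CPM values (100% whole within 0.01). The 11587 genes with adult values were tested with limma 3.58.1 (R 4.3.3) on log2(CPM + 1) with trend and with replicate number as a block, two-sided, and p-values were adjusted by Benjamini-Hochberg over all genes. The block rests on the study's statement that both fractions came from one pool of cells, with the replicate numbers assumed to mark the pools; the deviations of same-numbered adult libraries correlated at 0.0162 to 0.125 across genes. No source says that the pools share no mice, so that p-values measure the spread between these pools. P5 libraries (13677 genes) were tested likewise. The difference between ages was tested with limma on within-pool differences of recovered reads scaled together by TMM with edgeR 4.0.16 (11236 genes), so that it need not equal the difference of the fold changes printed. Alternatives were other pseudocounts (0.1 and 5), a filter at a mean of 5 CPM, no block, edgeR, DESeq2 1.42.0, no TMM, scaling to the mean log2(CPM + 1) of the RGC or neuronal list or to the summed CPM of the RGC list, reads thinned to 3927386, and libraries left out. The tests were tried on simulated counts.

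The members and the gene lists were chosen with earlier results of these data known. Genes named are Opn4, the 15 rises and 15 falls with the largest fold changes (mean of at least 5 CPM, one direction in 6 of 6 pools), from each list the 4 called genes with the smallest p and the 2 most abundant uncalled ones, the 10 rises and 10 falls with the largest adult changes called at both ages, the 10 largest falls of the RGC, neuronal and amacrine lists, and the 5 genes with the smallest p in each direction of the age difference; not all of these are described, and a few are not reported here. Vim, Timp3, Thy1, Cpne9, Pou4f1 and Rgs17 are outside it or were added after their values were seen. Of 14580 genes listed, 1911 had no symbol and 1885 were filled from the annotation by gene ID; coordinates are those of NCBIM37 (mm9). Tables were made with Python 3.11.15, numpy 2.4.6, pandas 2.3.3 and matplotlib 3.10.9.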

Additional observations from a re-analysis of the deposited data

Results flagged for a closer look

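In groups of 6 libraries, 60 were checked for a library far from the other 5, and 14 had one. The cut-off used flags about 1 in 20 groups of independent, normally distributed values. The values here were untransformed, some lay near 0, and the groups share libraries, so that 14 of 60 cannot be set against that rate. The ipRGC library of pool 5 had the lowest sum of the neuronal list, 28326.8 reads per 1000000 reads of listed genes, and the next was 33878.8. The cRGC library of pool 4 was far above the others for Opn4 (486.682 CPM), Tubb3 (82.2965 CPM), Abca8a (2055.58 CPM) and Ndnf (659.173 CPM), and the ipRGC library of the same pool was so for Tubb3 (1101.58 CPM). The cRGC library of pool 6 stood apart for Prkcq (46.3837 CPM), Eomes (36.2904 CPM) and Islr2 (6.69105 CPM). The cRGC library of pool 5 did so for Trpc7 (3.72751 CPM) and Adra2a (2.19265 CPM), and that of pool 3 for Cngb1 (0.309695 CPM, with the others at 0). Among ipRGC libraries, pool 3 stood apart for Abca8a (10.1505 CPM) and pool 1 for Kdr (10.072 CPM).

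The ipRGC against cRGC gap differed between adults and P5, by a test of the difference itself (limma adjusted p in parentheses), for 10 of the named genes chosen for it. It was lower in adults for Glul, by -5.84 (2.46e-05), Ndnf, -6.20 (0.000119), Dkk3, -3.14 (0.00145), Crym, -7.97 (0.00353), and Synpr, -3.60 (0.00353). It was higher in adults for Map1b, by 1.54 (0.00701), Pirt, 6.72 (0.00701), Tubb3, 3.99 (0.00785), Sncg, 5.15 (0.00834), and Nell2, 3.78 (0.0155), all on the log2 scale. Without P5 pool 1 or 2 none of the higher 5 was called, and without P5 pool 3 Map1b alone was; Glul, Ndnf and Dkk3 were called without each P5 pool in turn, and Crym and Synpr only without P5 pool 3.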

How the results depend on the processing

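Against 190 rises and 379 falls, edgeR's quasi-likelihood test gave 85 and 236 with the replicate block and 74 and 230 without it, and DESeq2 gave 730 and 927. Scaling to the mean log2 values of the RGC list gave 35 and 7870, to its summed CPM 43 and 4617, and to the neuronal list 72 and 1215. Leaving out pools 5 and 6, which had 1 run each, gave 25 and 96. Leaving out pools 4 and 2, a choice made after seeing the data, gave 286 rises. Without each pool in turn the rises numbered 92 to 204 and the falls 243 to 428. The age difference gave 3 to 104 genes, against 72. Without the pairing of the libraries (no replicate block), 204 rose and 393 fell, and only Scn2b and Fos of the 75 called genes named lost their calls. The cause of these differences was not tested.

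Of the 75, 37 were called under every alternative, 35 were not called without pools 5 and 6, and 9 changed sign, all of them with the mean log2 values of the RGC list as the scale: Scg2 (-0.79), Cacna1b (-0.37), Scn2a1 (-0.38), Scn2b (-0.32), Nefl (-0.03), Map1b (-0.74), Rtn1 (-1.29), Stmn3 (-0.25) and Thy1 (-1.14). With its summed CPM 4 of these did: Scg2 (-0.15), Map1b (-0.10), Rtn1 (-0.65) and Thy1 (-0.50). Nefl and Thy1 are themselves on the list that set these scales. Of 12 genes named and not called, the mean and the sum of the RGC list turned Plcb4 (-1.99 and -1.35), Snap25 (-1.70 and -1.07), Nell2 (-0.72 and -0.08), Satb1 (-1.32 and -0.68) and Pou4f1 (-0.73 and -0.09), the neuronal list turned Plcb4 (-0.33) and Snap25 (-0.05), and the omission of pools 5 and 6 turned Jam2 (0.01). Listed genes without a read limit results at low CPM: there were up to 1893 in an ipRGC library and up to 2530 in a cRGC library, both of pool 4. These were not the libraries with the fewest reads. The cRGC library of pool 5, with 3927386 reads of listed genes, had 144 such genes.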
